A study of Mus musculus with 22 samples.

Results

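The nuclear genes for oxidative phosphorylation were taken by name: Nduf genes for complex I, Sdha to Sdhd for complex II, Uqcr genes for complex III, Cox4 to Cox8 genes for complex IV and Atp5 genes for complex V. Of 55291 gene names in each library 88 were members, 40 in complex I, 4 in complex II, 8 in complex III, 19 in complex IV and 17 in complex V. A further 13 names with the pseudogene ending -ps were left out. Cox6c2, Ndufs6b and Ndufa11b are annotated as pseudogenes without that ending and stayed members. Values are FPKM, which count sequenced fragments per kilobase of a gene relative to the mapped fragments of its library, and were added up where a name occurred more than once. RNA was sequenced from CD4+ T helper memory cells of female mice aged 6 to 10 weeks, labelled as lung cells from Balb/c hosts. The 4 groups of 2 libraries were tissue ex-Tcirc, tissue ex-TRM, circulating ex-Tcirc and circulating ex-TRM, where TRM stands for tissue-resident and Tcirc for circulating memory cells. In all groups the cells descended from effector Th2 cells with a transgenic receptor for ovalbumin (OVA), given to OVA-sensitized recipients. The study ran an experiment with OT-II creERT2 cells in C57BL/6 (Ly5.2) recipients, with tamoxifen-induced labelling and sorting at day 49. Another used DO11.10 cells that were transferred a second time into BALB/c-nu/nu mice, which lack most T cells of their own, and were analysed at day 71 after OVA rechallenge. From which of these experiments an RNA library came, whether libraries came from separate animals, and how animals were pooled is not stated. The p-values reflect no more than the spread among the libraries, and this may be technical. Ex-TRM cells of the circulation are described as blood cells although their libraries carry the label lung.

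Oxidative phosphorylation passes electrons from NADH through complex I, or from succinate through complex II, to ubiquinone, then through complex III and cytochrome c to oxygen at complex IV. Complexes I, III and IV pump protons across the inner mitochondrial membrane, and complex V, the ATP synthase, lets them flow back and makes ATP. Complex II is built from nuclear genes alone, whereas the other complexes also hold subunits encoded in mitochondrial DNA. Memory T cells are known to rely on this pathway more than effector cells, which draw heavily on glycolysis.

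The stretches upstream of 4 members are shown, because the results below turn on Atp5h, Cox6a1 and Uqcrh, which passed the test of location, and on Atp5b, the member with the highest tissue mean. They come from RefSeq (GRCm38.p6, the assembly of the mm10 build) and run 5′ to 3′ on the gene's strand, ending at the base before the annotated start and stopping where another gene begins. Capitals mark matches on either strand to GCATGCG (the core of the NRF1 motif, nuclear respiratory factor 1), CCGGAAG (the core bound by ETS factors such as GABPA), AAGATGG (the YY1 core), GGGCGG (the SP1 box) and TATAAA (the TATA box). GCATGCG preceded by another C reads the same on both strands, so such a site is matched on each of them. The windows are chr11:115419920-115420093 (minus strand) for Atp5h, chr5:115348959-115349158 (minus strand) for Cox6a1, chr4:116075071-116075268 (minus strand) for Uqcrh and chr10:128083107-128083306 (plus strand) for Atp5b.
Atp5h: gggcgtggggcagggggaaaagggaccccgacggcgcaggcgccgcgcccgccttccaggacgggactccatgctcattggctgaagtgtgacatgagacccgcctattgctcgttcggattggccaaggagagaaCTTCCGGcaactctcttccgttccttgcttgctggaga
Cox6a1: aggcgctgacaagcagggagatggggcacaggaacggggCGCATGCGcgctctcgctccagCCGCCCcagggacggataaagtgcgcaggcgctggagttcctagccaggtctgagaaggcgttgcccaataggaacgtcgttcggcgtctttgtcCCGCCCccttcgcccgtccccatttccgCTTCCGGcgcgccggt
Uqcrh: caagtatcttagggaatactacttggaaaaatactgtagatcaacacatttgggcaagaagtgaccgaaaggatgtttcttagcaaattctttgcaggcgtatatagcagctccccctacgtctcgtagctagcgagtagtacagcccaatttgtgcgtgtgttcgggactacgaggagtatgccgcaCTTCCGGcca
Atp5b: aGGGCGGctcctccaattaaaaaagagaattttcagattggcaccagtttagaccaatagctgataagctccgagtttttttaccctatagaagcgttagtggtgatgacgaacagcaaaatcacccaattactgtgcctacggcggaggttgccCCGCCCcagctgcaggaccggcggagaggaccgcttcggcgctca

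Of the 88 members 68 had a promoter in that table, taken as 250 bases before to 50 after the start. The NRF1 core was found in 11 of 68 (16.2%) against 4.01% of 27025 genes. The ETS core was found in 17 of 68 (25%) against 9.93%, and the YY1 core in 11 of 68 (16.2%) against 7.28%. The SP1 box stood at 41.2% in members (95% Wilson interval 30.3% to 53.0%) against 38.2% in all genes, and the TATA box at 11.8% against 15.7%. The ETS core stood in 4 of 32 complex I promoters and 6 of 15 complex V promoters. The YY1 core stood in 7 of 32 and 3 of 15, and no difference between complexes was tested. Of the genes shown, Atp5h, Cox6a1 and Uqcrh held the ETS core, at 38, 16 and 10 bases before the start respectively, and Atp5b held only SP1 boxes. Atp5j, whose promoter overlaps Gabpa and is not shown, held all but the TATA box. A match describes letters, not binding.

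The libraries differed widely in what they detected. Names above 0 numbered 30488 to 37894 in tissue, 12785 and 7042 in the circulating ex-Tcirc pair, and 29688 in replicate 2 of circulating ex-TRM. Circulating ex-TRM replicate 1 had 917 and was treated as missing, so that circulating ex-TRM rests on 1 library. Read totals are not part of the files. From where low values pile up, tissue ex-Tcirc replicate 1 had about 0.242 times the depth of tissue ex-TRM replicate 1, and circulating ex-TRM replicate 2 about 1.06 times that of tissue ex-Tcirc replicate 1. A value of 0 is given below as "listed at 0", since shallow libraries can miss genes. All 12 T cell markers were above 0 in each tissue library and in circulating ex-TRM replicate 2, and 11 and 9 were in circulating ex-Tcirc. Of 8 myeloid markers 5 and 3 were above 0 in circulating ex-Tcirc, with sums of 744 and 308 FPKM against 48.4 to 152 in tissue, mostly from Lyz2 at 646 and 255 FPKM. Alveolar epithelial markers summed to 514 FPKM in circulating ex-Tcirc replicate 1 and to 0 in replicate 2, against 11.9 to 73.8 in tissue. B cell markers summed to 395 FPKM in tissue ex-Tcirc replicate 1 and to 20.7 to 63.2 in the other tissue libraries. In tissue ex-Tcirc replicate 1, 3 of the 7 were above 0, with Igkc at 281 FPKM, and Cd79a was among those listed at 0. The part of such cells in any value below was not tested.

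In tissue 47 of the 70 members with a mean of at least 5 FPKM kept their highest value within 2 times their lowest, as did 69.6% of 9566 genes. The other members included 11 that were listed at 0 in tissue ex-Tcirc replicate 1, 9 of them in complex I. By complex the count within 2 times was 16 of 34 in I, 4 of 4 in II, 6 of 7 in III, 10 of 12 in IV and 11 of 13 in V. Members above 0 numbered 64 in tissue ex-Tcirc replicate 1 and 78 or 79 in the other 3. The median level per member, among those above 0 in all 4, was 11.5 FPKM in complex I, 10.8 in complex II, 11.5 in complex III, 28.0 in complex IV and 18.5 in complex V.

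**Figure D1:**
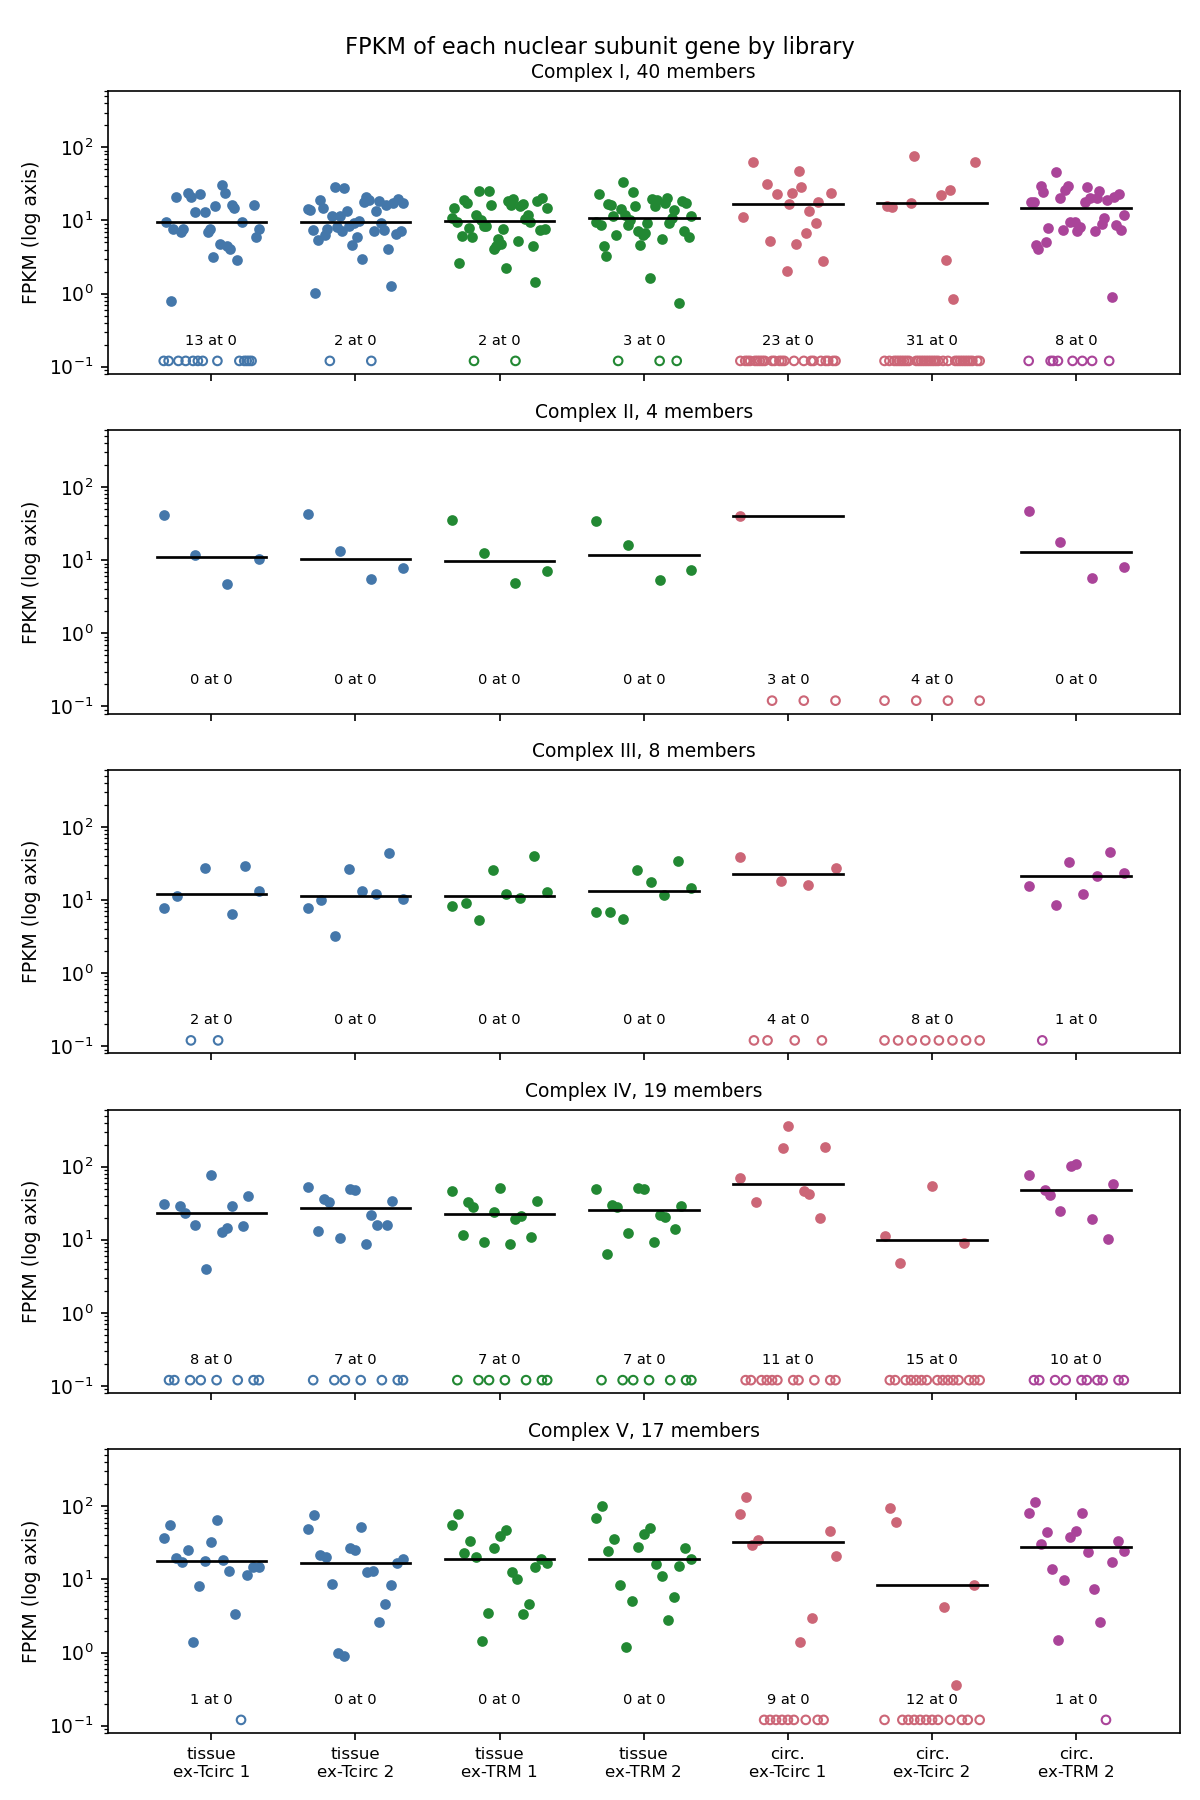
FPKM of every member on a log axis, by complex (panels) and library (columns). Filled points are values above 0, open points on the bottom line are members listed at 0 (their number is printed), and black bars are medians over members above 0; the circulating ex-Tcirc columns hold 50 and 70 of 88 members at 0.

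Complex I, the NADH dehydrogenase, had its highest tissue mean at the accessory subunit gene Ndufa6. The tissue ex-Tcirc libraries held 21.3 and 28.5 FPKM of it, the tissue ex-TRM libraries 25.6 and 33.8, the circulating ex-Tcirc libraries 31.7 and 17.4 and the circulating ex-TRM library 46.6. It was one of 7 complex I genes above 0 in all 7 libraries. The flavoprotein gene Ndufv1, at the entry of electrons, stood at 16.3 and 19.9, at 20.1 and 17.5, at 24.0 and 62.7 and at 23.0 FPKM in the same order. Tissue ranges of the iron-sulphur and core genes were 13.4 to 17.4 FPKM for Ndufs1 and 2.87 to 10.4 for Ndufs3. Ndufs7, Ndufs8 and Ndufa9 were listed at 0 in tissue ex-Tcirc replicate 1 and above 0 in the other tissue libraries. The membrane arm gene Ndufb8, a common marker of assembled complex I, read 30.6 and 21.2 FPKM in the tissue ex-Tcirc libraries against 16.3 and 15.9 in the ex-TRM ones, so that these pairs did not overlap. Ndufc1 had the lowest tissue mean of at least 1, with 4.44 FPKM in tissue ex-Tcirc replicate 1 and 0 in every other library.

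Complex II, succinate dehydrogenase, showed 1 abundant and 3 lower genes. Its flavoprotein gene Sdha read 41.0 and 42.6 FPKM (tissue ex-Tcirc), 35.8 and 34.5 (tissue ex-TRM), 40.2 and 0 (circulating ex-Tcirc) and 46.8 (circulating ex-TRM). The iron-sulphur gene Sdhb ranged over 11.6 to 15.9 FPKM in tissue and the membrane anchors Sdhc and Sdhd over 4.66 to 5.47 and 7.14 to 10.5. Both circulating ex-Tcirc libraries listed all 3 at 0.

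Complex III, the cytochrome bc1 complex, was led by Uqcrh, the hinge subunit at the cytochrome c1 side, and the core gene Uqcrc1. Uqcrh read 29.2 and 44.3 FPKM (tissue ex-Tcirc), 39.7 and 34.3 (tissue ex-TRM), 0 and 0 (circulating ex-Tcirc) and 44.9 (circulating ex-TRM). As deposited, the circulating ex-TRM library was thus slightly above the tissue libraries while circulating ex-Tcirc was at 0. Uqcrc1 had the tightest tissue values of the complex's leading genes, 25.6 to 27.7 FPKM, and Uqcrfs1, the Rieske iron-sulphur protein, ranged from 6.45 to 12.1. The pseudogene Uqcrh-ps1, which was not a member, stood at 23.6 FPKM in tissue ex-Tcirc replicate 1 and at 4.12 to 10.4 in the other tissue libraries, and reads shared between such copies may have been split.

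Complex IV, cytochrome c oxidase, has subunits that come in tissue-specific isoforms. Cox4i2, Cox6a2, Cox6b2, Cox7a1, Cox7b2, Cox8b and Cox8c, the forms of lung, heart and skeletal muscle or testis, were listed at 0 in all 7 libraries, as was Ndufa4l2. Their ubiquitous partners were above 0 in every tissue library. Cox4i1 stood at 30.4 and 53.1, at 46.1 and 48.9, at 70.2 and 11.1 and at 77.6 FPKM in the group order above. Cox8a ranged from 28.6 to 39.6 FPKM in tissue, Cox7b from 16.0 to 28.7, Cox6b1 from 9.37 to 16.0, Cox7a2 from 8.61 to 12.8 and Ndufa4 from 6.01 to 7.74. Muscle markers summed to 6.62 to 32.0 FPKM in tissue. Of the core-facing subunits, Cox5b ranged from 28.7 to 35.7 FPKM in tissue, and Cox5a, the lowest member above 1, stood at 0 in tissue ex-Tcirc replicate 1 and at 6.39 to 13.1 in the other 3.

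Cox6c and Cox6c2 are close copies, and their values are uncertain one by one. Cox6c2 is annotated as a pseudogene, so its value is no measure of a subunit gene. Cox6c2 had the highest tissue mean of the complex, with 77.1 and 47.3 FPKM in the ex-Tcirc pair and 51.3 and 49.7 in the ex-TRM pair. Cox6c stood at 3.95, 49.6, 24.3 and 51.7 FPKM in the same libraries. Their sum varied less, from 75.5 to 101 FPKM in tissue. It reached 533 in circulating ex-Tcirc replicate 1, 354 of it from Cox6c2, where all of complex IV summed to 931, and 54.9 in replicate 2. In circulating ex-TRM replicate 2 the pair held 211 FPKM, 109 of it from Cox6c2, where complex IV summed to 490.

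Complex V held the member with the highest tissue mean, Atp5b, the catalytic beta subunit, at 78.7 FPKM. Over the 7 libraries the mean of Cox6c2 was higher, at 106 against 94.1 FPKM. Atp5b read 56.2 and 77.2 FPKM (tissue ex-Tcirc), 79.1 and 103 (tissue ex-TRM), 133 and 94.9 (circulating ex-Tcirc) and 116 (circulating ex-TRM), above 0 in all 7. The alpha subunit gene Atp5a1 stood at 36.7 and 49.2, at 56.1 and 70.4, at 78.7 and 0 and at 80.9 FPKM. The genes of the membrane ring, which turns as protons pass, differed widely in tissue mean ± SD (n = 4). Atp5g3 stood at 24.9 ± 4.62 FPKM, Atp5g2 at 4.38 ± 3.03 and Atp5g1, the lowest of the complex, at 1.25 ± 0.21. Atp5l and Atp5k, small membrane subunits, stood at 3.05 ± 0.425 and 11.9 ± 1.49 FPKM.

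Summed per complex, tissue ex-Tcirc replicate 1 stood below the other tissue libraries in complex I, at 322 against 428 to 448 FPKM. The same held in complex III, at 95.5 against 123 to 128. It listed 11 complex I and 2 complex III members at 0 that the other tissue libraries listed above 0. The mean ± SD over the 4 tissue libraries was 410 ± 59.5 FPKM in complex I, 65.1 ± 4.04 in complex II, 118 ± 14.8 in complex III, 312 ± 22.5 in complex IV and 399 ± 50.7 in complex V. Circulating ex-TRM replicate 2 lay above every tissue library in each complex, at 507, 78.2, 159, 490 and 571 FPKM. Circulating ex-Tcirc was listed at 40.2 and 0 FPKM in complex II, and at 100 and 0 in complex III. In complex IV it held both the highest and the lowest sum, 931 and 79.7 FPKM.

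**Figure D2:**
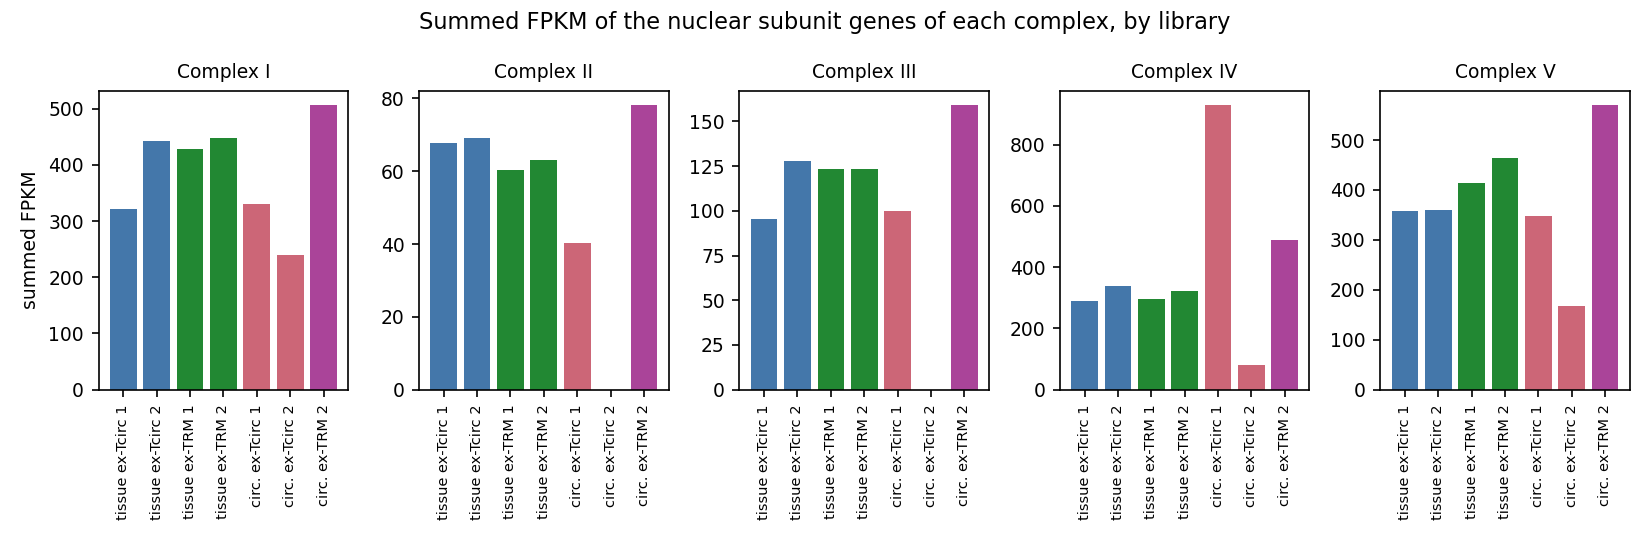
Summed FPKM (vertical axis from 0) of the nuclear members of each complex in 7 libraries, 1 bar per library and no error bar; each panel has its own scale. On this scale, as deposited, circulating ex-TRM 2 is above the 4 tissue bars in every panel. With median-of-ratios factors this held only in complexes IV and V. The complex IV sums include the pseudogene Cox6c2, at 109 FPKM in circulating ex-TRM 2 and 47.3 to 77.1 in tissue. The result for complex IV is therefore no measure of the subunit genes alone. The 2 circulating ex-Tcirc bars differ from each other most in complex IV, at 931 and 79.7.

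The first comparison was tissue against circulation, over both origins. limma on log2(FPKM + 1) tested the 2656 genes with a mean of at least 20 FPKM over 7 libraries, and 22 members were among them, 5, 1, 2, 7 and 7 in complexes I to V. Of the rest, 8 were listed at 0 in all 7 libraries and the others lay under the mean. It called 4 of 22 members, all higher in tissue, beside 7.34% of all tested genes in either direction and 6.55% higher in tissue. They were Atp5j and Atp5h, which code for the F6 and d subunits of the stalk that holds the ATP synthase in place, Uqcrh, and Cox6a1, a regulatory subunit of cytochrome oxidase. Over all tested genes the median log2 difference of tissue minus circulation was 0.43, and it was 0.45 over the 22 members.

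Each of the 4 was listed at 0 in both libraries of circulating ex-Tcirc, and so were 7.08% of tested genes. Atp5j (chr16:84827871-84835857) read 66.0 and 51.9 FPKM (tissue ex-Tcirc), 47.7 and 50.1 (tissue ex-TRM) and 81.1 (circulating ex-TRM). Atp5h (chr11:115415691-115419919) stood at 32.8 and 25.2, at 39.5 and 42.3 and at 45.4 FPKM in the same order. Cox6a1 (chr5:115345652-115348958) stood at 23.4 and 32.5, at 27.7 and 28.3 and at 40.7 FPKM. As deposited, all 3, and Uqcrh (chr4:116066965-116075070), thus had their highest value in circulating ex-TRM replicate 2, against the direction of the call. With median-of-ratios factors only Atp5j of them stayed above all 4 tissue libraries. The limma log2 differences ± SE were 2.59 ± 0.30 for Atp5j (adjusted p = 0.027), 2.37 ± 0.34 for Atp5h (0.036), 2.47 ± 0.36 for Uqcrh (0.036) and 2.16 ± 0.36 for Cox6a1 (0.046). These sizes depend on the pseudocount, because 1 arm holds zeros, and are no fold changes. The 2 equal zeros of each gene also add no spread to its SE. Tested members with a single zero in circulating ex-Tcirc had SEs of 1.19 (Uqcrc1) to 2.26 (Cox6c). The 4 calls thus restate the zeros in both libraries, in each comparison that made them, and their p-values are no further evidence. No tested member had all 4 tissue libraries above all 3 circulating libraries, against 12.1% of tested genes, and 2 had all 4 below, against 11.8%. limma called none of the 22, and no gene, when any 1 tissue library was left out. Without circulating ex-Tcirc replicate 1 it called 14 of 19 tested members, 12 of them higher in tissue, beside 1860 of 2678 genes. Without replicate 2 it called 12 of 25, 6 of them higher in tissue, beside 1172 of 2777 genes. In both of these fits the circulating ex-Tcirc arm was 1 library, assumed to vary like the other groups.

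Within ex-Tcirc the same 4 members were called by limma, beside 9.11% of all tested genes in either direction and 8.36% higher in tissue. The log2 differences were 5.90 ± 0.38 for Atp5j (adjusted p = 0.0061), 5.21 ± 0.46 for Uqcrh (0.0067), 4.90 ± 0.43 for Atp5h (0.0067) and 4.84 ± 0.46 for Cox6a1 (0.0070). Of the 22 members 17 had a positive difference and 5 a negative one, beside 1723 positive among all 2656 tested genes. Atp5b (-0.76 ± 0.34), Atp5c1 (-1.01 ± 0.46) and Ndufv1 (-1.07 ± 0.57) were among the negative ones. Among members with a tissue mean of at least 5 FPKM, 34 of 70 stood at 0 in both libraries of circulating ex-Tcirc, against 37.4% of 9566 genes. Only 18 of 88 members were above 0 in replicate 2 and 38 in replicate 1. Replicates 1 and 2 had 12785 and 7042 names of any kind above 0, against 30488 to 37894 in tissue. The part of shallow sequencing in these zeros was not tested. Fewer cells of a type and less RNA per cell cannot be told apart in such bulk samples either. limma called no member and no gene within ex-Tcirc when any 1 tissue library was left out. The same held in a fit of the 4 ex-Tcirc libraries alone, with 283 genes, 1 of them a member, at an unadjusted p under 0.05.

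The subunits encoded in the mitochondrion were detected throughout, unlike most nuclear ones. All 13 mitochondrially encoded genes, such as mt-Co1 of complex IV and mt-Atp6 of complex V, were above 0 in all 7 libraries. Their summed FPKM divided by that of the nuclear members was 2.79 to 3.62 in tissue, 2.91 in circulating ex-TRM replicate 2, and 4.45 and 10.8 in circulating ex-Tcirc. limma called none of the 13 in the comparison over both origins, and 11 of 13 were lower in tissue with a median log2 difference of -0.54.

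Other genes of the pathway were followed from fixed lists. Of 45 assembly factors, 22, 40, 42 and 44 were above 0 in the tissue libraries, 9 and 5 in the circulating ex-Tcirc pair, and 31 in replicate 2 of circulating ex-TRM. Of 18 carriers and regulators, 14 stood at 0 in both libraries of circulating ex-Tcirc, among them Cycs (cytochrome c), the regulators Nrf1, Gabpa and Yy1 and the coactivator gene Ppargc1a, which stood at 0.79 to 2.90 FPKM in tissue. None of these 2 lists reached the mean of 20 FPKM, so none was tested. For location over both origins limma called 0 of 4 tested citrate cycle genes, 0 of 6 glycolysis genes and 5 of 69 cytosolic ribosomal protein genes, all 5 higher in tissue, beside 7.34% of all tested genes.

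In tissue ex-Tcirc replicate 1 zeros were more frequent among members than among other genes above the same minimum. Among genes of at least 5 FPKM in every other tissue library, tissue ex-Tcirc replicate 1 listed 11 of 65 members at 0, against 4.33% of 8020 genes and 5.16% of the protein-coding ones. Assembly factors stood at 7 of 18 there, and the citrate cycle at 0 of 13. All but Cox5a and Uqcrc2 belonged to complex I. The remaining tissue libraries listed none of 50 or 51 members at 0. Among genes of at least 5 FPKM in all 4 tissue libraries, circulating ex-TRM replicate 2 listed 4 of 50 members at 0, Cox7a2, Cox7b, Ndufa5 and Uqcr11, against 1.21% of 7282 genes. Circulating ex-Tcirc listed 20 and 37 of 50 at 0, which is 40% and 74%, against 32.9% and 60.2% of all genes and 38.1% and 66.8% of protein-coding genes, so members were near the protein-coding share. Citrate cycle genes stood at 0 in 7 and 9 of 13. For the 11 members at 0 in tissue ex-Tcirc replicate 1, tissue ex-Tcirc values rest on replicate 2.

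**Figure D3:**
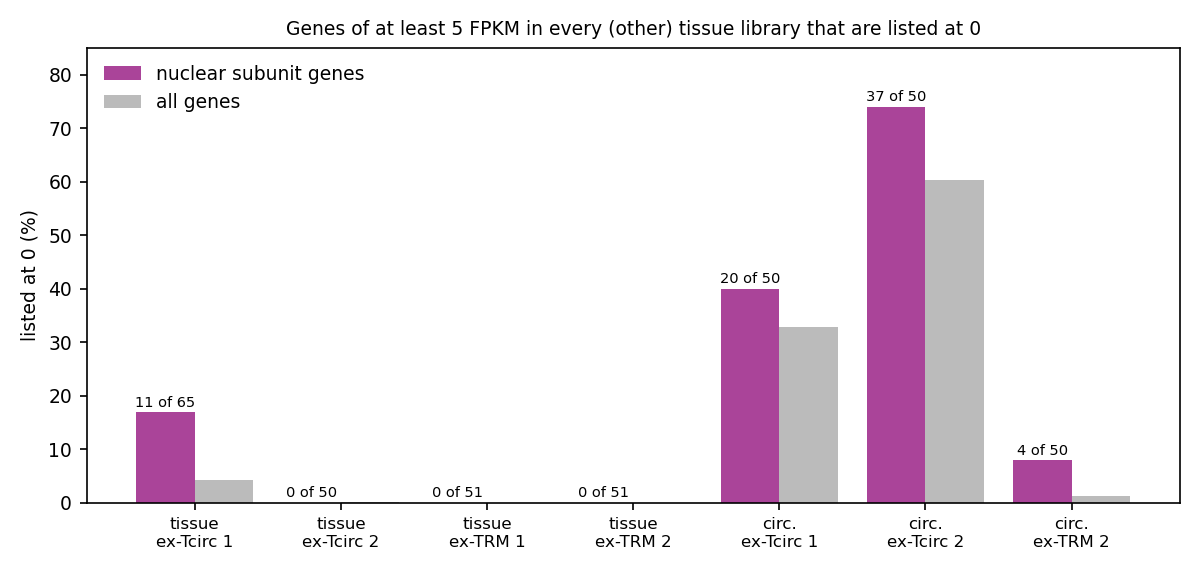
Share of genes listed at 0 in each library (vertical axis, percent), for members (dark bars, with their number) and for all genes (grey bars); the genes are those of at least 5 FPKM in the other 3 tissue libraries for a tissue library and in all 4 for a circulating one. Members stood at 16.9% against 4.33% in tissue ex-Tcirc 1, and at 40% and 74% against 32.9% and 60.2% in circulating ex-Tcirc.

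Within ex-TRM, on the scale as deposited, the circulating library stood above all 4 tissue libraries for most members, with no member called. limma called 0 of 2656 genes here (background 0%), with 87 at an unadjusted p under 0.05, none of them a member, and circulating ex-TRM is 1 library without a spread of its own. Among 55 members above 0 in the 4 tissue libraries and in circulating ex-TRM replicate 2, with a mean of at least 5 FPKM, 37 were higher in that library than in all 4 tissue libraries, against 34.5% of 9138 genes. Only Ndufa3, Cox7c and Atp5k (3 of 55) were lower than all 4, against 20.2%. Cox7c stood at 10.9 to 15.9 FPKM in tissue and 10.3 in the circulating library, and Atp5k, a small membrane subunit gene, at 10.3 to 13.2 and 7.52. Counting zeros as well, 42 of 70 members were above (34.3% of genes) and 7 of 70 below (20.5%).

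The median ratio of circulating ex-TRM replicate 2 to the tissue mean was 1.37 over the 55 members and 1.06 over all genes. By complex it was 1.17 in I, 1.17 in II, 1.81 in III, 1.70 in IV and 1.49 in V. All 5 complex III members counted here were above the 4 tissue libraries, as were 3 of 4 in complex II, 7 of 9 in complex IV, 12 of 14 in complex V and 10 of 23 in complex I. With median-of-ratios factors these became 3 of 5 in III, 0 of 4 in II, 5 of 9 in IV, 7 of 14 in V and 4 of 23 in I. Uqcrfs1 stood at 21.3 FPKM against 6.45 to 12.1 in tissue, and Uqcrq, a small ubiquinone-binding subunit, at 23.2 against 10.3 to 14.8. Cox8a stood at 57.8 against 28.6 to 39.6, and Atp5o, the subunit that joins the stalk to the catalytic head, at 33.2 against 15 to 26.9. Other lists were shifted as well, with median ratios of 1.48 in cytosolic ribosomal proteins, 1.36 in glycolysis, 1.32 in mitochondrially encoded subunits, 1.31 in assembly factors, 1.28 in the citrate cycle and 1.13 in carriers and regulators. A limma fit without circulating ex-Tcirc, on genes above 0 in these 5 libraries, called no gene, and the smallest adjusted p among members was 0.166. At an unadjusted p under 0.05 it had 1380 genes, 9 of them members.

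The size of this shift moved with the scaling. With median-of-ratios factors the median log2 difference of tissue minus circulation within ex-TRM went from -0.06 to 0.23 over all genes. Over the 22 members it went from -0.46 to -0.17. Such factors shift all genes of a library nearly alike, so the gap between members and all genes could hardly move. On that scale 19 of 55 members were above all 4 tissue libraries, against 18.3% of genes. With equal protein-coding sums 26 of 51 were, against 24.3%.

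**Figure D4:**
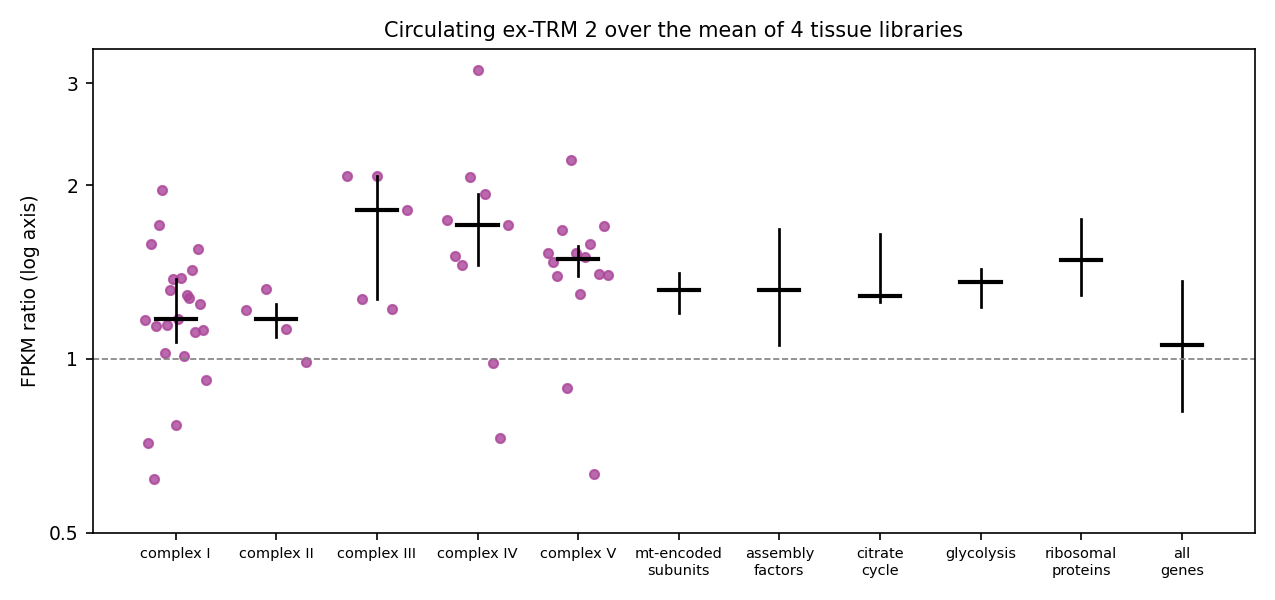
FPKM in circulating ex-TRM replicate 2 divided by the mean of the 4 tissue libraries, on a log axis, for genes above 0 in these 5 libraries with a mean of at least 5. Points are members, horizontal bars medians and vertical lines the quartiles of each list; the dashed line marks equal values, and medians run from 1.06 for all genes to 1.81 for complex III.

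Between ex-TRM and ex-Tcirc in tissue no member was called. Among genes with a mean of at least 5 FPKM, both ex-TRM libraries stood above both ex-Tcirc libraries for 33.3% of 9566. The same held for 8 of 13 ATP synthase genes and for 11 of 34 complex I genes, the latter near the share of all genes. Of these 11 complex I genes, 8 were listed at 0 in tissue ex-Tcirc replicate 1. limma called 0 of 2656 genes (background 0%), with 7 at an unadjusted p under 0.05 and no member among them. Of 59 members above 0 in the 4 tissue libraries with a mean of at least 5 FPKM, 11 had both ex-TRM libraries above both ex-Tcirc libraries, against 32.9% of 9220 genes. Of these 11, 8 were in complex V, out of 13 members there, 3 were in complex I and none in complexes II, III and IV. In the other direction 15 of 59 members had both ex-TRM libraries lower, against 10.5% of genes, and these were 7 complex I, 2 complex II, 2 complex III, 2 complex IV and 2 complex V genes. The median ratio of ex-TRM to ex-Tcirc was 1.23 in complex V, 0.964 in complex I, 0.929 in complex II, 0.926 in complex IV, 0.989 in complex III and 1.07 over all genes. Among 70 members with that mean, zeros included, 19 were above (33.3% of genes) and 15 below (10.2%). The balance turned with the scale: with equal protein-coding sums 5 of 56 members were above and 22 below, beside 13.4% and 26.6% of genes, and with equal sums over all names 14 of 56 were above and 7 below, beside 45.7% and 4.92%. These pairs hold 2 libraries each, and the difference between complexes was not tested.

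The 8 ATP synthase genes were Atp5a1 and Atp5b of the catalytic head, Atp5c1 and Atp5d of the central rotor stalk, Atp5o and Atp5h of the outer stalk, the ring gene Atp5g3 and Atp5mpl, a small membrane protein. Atp5d, with the widest gap of the 8, read 17.5 and 20.2 FPKM in the ex-Tcirc pair and 33.1 and 35.3 in the ex-TRM pair. Atp5c1 stood at 19.4 and 21.5 against 23.3 and 24.7 FPKM, and Atp5g3 at 18.0 and 26.7 against 27.2 and 27.7, so that their gaps were narrow. Atp5j and Atp5k went the other way, Atp5j at 66.0 and 51.9 FPKM in ex-Tcirc against 47.7 and 50.1 in ex-TRM. Atp5d and Atp5mpl were named after their values were seen. A limma fit of the 4 tissue libraries on genes above 0 gave Atp5d a log2 difference of 0.83 ± 0.18 and an adjusted p of 0.706, with no member and no gene called and 490 genes, 4 members among them, at an unadjusted p under 0.05.

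**Figure D5:**
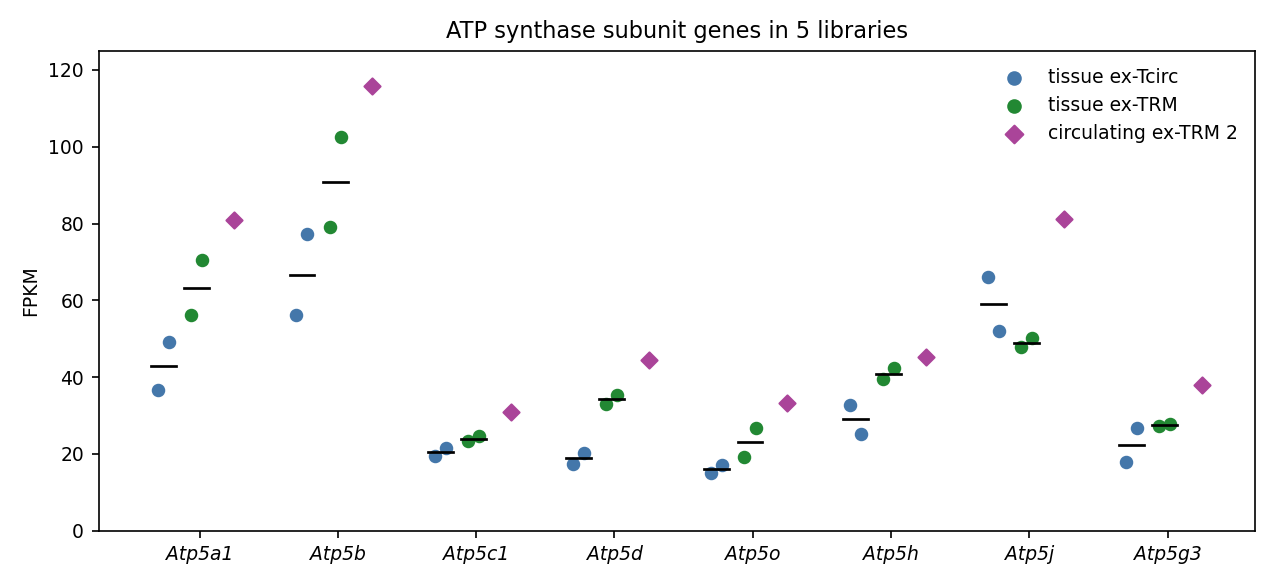
FPKM (vertical axis from 0) of 8 ATP synthase genes in the 2 tissue ex-Tcirc libraries (blue), the 2 tissue ex-TRM libraries (green) and circulating ex-TRM 2 (diamonds), with black bars for the mean of each pair. The ex-TRM pair lies above the ex-Tcirc pair for 7 of the 8 and below it for Atp5j, and the diamond is the highest point for each gene. The drawn genes are a selection that leaves out Atp5mpl (above) and Atp5k (below). Of 13 complex V members 8 were above and 2 below as deposited, beside 32.9% and 10.5% of genes. With median-of-ratios factors 5 of 13 were above, beside 21.5%.

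The count in complex V and the share of all genes both moved with the scale. With median-of-ratios factors, and with equal protein-coding sums, 5 of 13 complex V genes kept both ex-TRM libraries above both ex-Tcirc libraries, Atp5a1, Atp5d, Atp5h, Atp5mpl and Atp5o, beside 21.5% and 13.4% of genes. With equal sums over all names 8 of 13 did, beside 45.7%. Complex IV had no such gene on any of these scales.

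Within the circulation, ex-TRM was compared with ex-Tcirc, and limma called the same 4 members, all higher in ex-TRM, beside 6.63% of all tested genes in either direction and 6.59% higher in ex-TRM. The log2 differences were 6.36 ± 0.46 for Atp5j, 5.53 ± 0.52 for Atp5h, 5.52 ± 0.56 for Uqcrh and 5.38 ± 0.56 for Cox6a1, each at an adjusted p of 0.015. The ex-TRM arm is 1 library, so its spread is taken from the other groups. When any 1 tissue library was left out limma called no member and no gene here. Without circulating ex-Tcirc replicate 1, 17 of 19 tested members were higher in ex-TRM. Their median log2 difference was 5.29, against 1.83 over all tested genes. Without circulating ex-Tcirc replicate 2, 14 of 25 were higher, with a median of 0.062 against 0.20 over all tested genes. In these 2 fits each circulating arm was 1 library, so the direction of many members hung on 1 library. This comparison shares its libraries with the previous ones, and the zeros that set it are the same values. Of 22 members 19 were higher in ex-TRM, as were 2021 of all 2656 tested genes. The median log2 difference was 2.11 over the members, against 1.06 over all tested genes. Atp5b differed little, at 0.04 ± 0.42. The interaction, which tests whether the difference by location differed between the 2 origins, called none of 22 members in limma, with an adjusted p of 0.051 for each of these 4, beside 0.151% of tested genes.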

How the data were processed

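RNA libraries of 8 samples in 4 groups of 2 were used, of 22 samples in the series; the 14 ATAC-seq samples were not analysed here. The deposited values are FPKM, 1 value per gene name, per the file headers. StringTie 3.0.1, HISAT2 2.2.1 and the mouse build mm10 appear among the tools and builds of the submitters' processing notes, with no role given. Annotation, strand setting and filters: not given in the sources used here. Protein-coding names held 10.2% to 14.0% of the FPKM sum in the 7 libraries used.

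Members were chosen by name patterns, and the members, gene lists and tests were chosen with earlier results of these data known. limma 3.58.1 (R 4.3.3) was fitted to log2(FPKM + 1) of 7 libraries with group means and an intensity trend, on genes with a mean of at least 20 FPKM, with Benjamini-Hochberg adjustment over all tested genes and a threshold of 0.05, in 6 comparisons. A log2 difference on this scale understates the change of low genes. Described genes were the called members, the highest and lowest member of each complex (mean of at least 1), a fixed list of core subunits and isoform pairs, and others said to be chosen after their values were seen or counted in groups of 5 or fewer. An item of the fixed list is not reported here. Gene positions and promoters come from RefSeq tables. Alternatives were other pseudocounts, minimums, scalings, libraries and a replicate block.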

Additional observations from a re-analysis of the deposited data

Results flagged for a closer look

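Circulating ex-TRM replicate 1, the library treated as missing in the comparisons reported, listed 1 member above 0, Cox4i1 at 50.8 FPKM. It entered only the fit of all 8 libraries. Cox4i1 stood at 77.6 FPKM in circulating ex-TRM replicate 2.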

How the results depend on the processing

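The calls among members depended on the zeros of circulating ex-Tcirc and on the filter. For location over both origins, limma called 4 members as reported. It called 20 of 79 with a minimum of 1 FPKM in 2 or more libraries (3618 of 28325 genes), 19 of 62 with a mean of at least 5 (2259 of 9096) and 20 of 80 with no filter (4345 of 43037). It called 1 of 22 with median-of-ratios factors (70 of 2681 genes) or equal sums over all names (85 of 2668). It called 0 of 20 with equal protein-coding sums (78 of 2663 genes), and 0 with all 8 libraries, with the replicate number as a block or, chosen after seeing the data, among the 8 members of genes above 0 in all 7 libraries (1 of 1558 genes). Leaving out 1 library gave 0 to 14. Within ex-Tcirc the 3 looser filters gave 27, 22 and 24 in place of 4 (5984, 2640 and 4981 genes), and all 8 libraries, the 4 ex-Tcirc libraries alone and genes above 0 in all 7 gave 0. Here the median was 4.52 over tested members without circulating ex-Tcirc replicate 1, against 1.59 over all tested genes. Without replicate 2 it was -0.51 against -0.10. For origin within circulation they gave 21, 19 and 18 in place of 4 (4400, 2243 and 5128 genes), and all 8 libraries, the block and genes above 0 in all 7 gave 0, with 0 to 17 when 1 library was left out. The interaction called 0 members as reported, 4 with a pseudocount of 0.1 (179 genes), 16 with each looser filter (2099, 2013 and 3165 genes) and 0 to 15 without 1 library. Within ex-TRM limma called 2 members with no filter (854 genes). The median was -0.40 over tested members without either circulating ex-Tcirc library, against -0.043 without replicate 1 and -0.046 without replicate 2 over all tested genes. Leaving out circulating ex-TRM replicate 2 was not possible there. No alternative called a member for origin within tissue. Over all tested genes the counts ran from 0 to 4345, 0 to 5984, 0 to 854, 0 to 584, 0 to 5128 and 0 to 3165 in the order location over both origins, within ex-Tcirc, within ex-TRM, origin within tissue, within circulation and interaction. The cause was not tested, apart from the number of genes and libraries that a setting removes.

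Correlations of same-numbered deviations were 0.0074, -0.094 and -0.040 over 2656 genes. With 1 difference per group and many zeros, these values cannot show whether same-numbered libraries were paired. Within ex-TRM, where no member was called, 5 values reversed. With all 8 libraries the log2 difference became 2.62 for Atp5h, 2.46 for Atp5j and 2.48 for Uqcrh, and with median-of-ratios factors 0.14 for Atp5h and 0.015 for Uqcrh. As a share of protein-coding FPKM, circulating ex-TRM over tissue was 1.06 in complex II, from 1.20, and 1.40 in complex IV, from 1.57. The TATA box share was 5.88% in the window of 100 bases before to 50 after, against 8.08% of all genes. The depth of the circulating ex-Tcirc pair was not estimated and its part in their zeros was not tested. Intervals by counting could not be given from FPKM.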
